A study of Mus musculus with 9 samples.

Results

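The stomach lineage genes are a set of 10 genes whose products mark the embryonic or adult stomach: the transcription factor gene Sox2, the gastrokine genes Gkn1 and Gkn2, the trefoil factor genes Tff1 and Tff2, the pepsinogen gene Pgc, the proton pump genes Atp4a and Atp4b, the intrinsic factor gene Gif and the claudin gene Cldn18. They were chosen by gene symbol, not by measured values. Of the 10, 6 have a row under their symbol in a table of 18541 genes with 1 Agilent probe each. Gkn2 was found through its Entrez number under an older name, 1810036H07Rik, which makes 7 measured genes. Gkn1, Tff2 and Gif were not analysed here.

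Transcripts were measured on 1-colour arrays in the dorsal pancreatic epithelium, dissected by hand from mice at e12.5, with 3 arrays for each of 3 genotypes. The double heterozygotes carried Sox9fl/+, the Foxa3-Cre transgene and Pdx1-/+. The Sox9 heterozygotes carried Sox9fl/+ with Foxa3-Cre, so 1 Sox9 allele is removed in cells in which regulatory sequence of Foxa3 has driven the recombinase. The Pdx1 heterozygotes carried Pdx1-/+, a LacZ knock-in that inactivates 1 allele, and their label names no Cre transgene, so the loss of Sox9 and the presence of Cre cannot be told apart against them. Groups are described as littermates. Each RNA sample pooled 3 dorsal pancreata, and the title of the third double-heterozygote sample names replicates 3 and 4. Wild-type embryos were not analysed here. The probe for Pdx1, listed as Ipf1, read 1143 to 1352 units in double heterozygotes, 1316 to 1573 units in Sox9 heterozygotes and 1080 to 1132 units in Pdx1 heterozygotes. The Sox9 probe read 292 to 381 units in double heterozygotes, 294 to 325 units in Sox9 heterozygotes and 198 to 239 units in Pdx1 heterozygotes, so Sox9 was not lower in the groups labelled as Sox9-heterozygous (log2 difference of Sox9 over Pdx1 heterozygotes 0.45, limma adjusted p = 0.298). Whether that probe lies in the deleted part of Sox9 is not known here, so it does not check the labels, and the groups are named as labelled. In bulk RNA of this kind, fewer cells of a type and less RNA per cell cannot be told apart.

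Stomach, pancreas and duodenum arise from neighbouring stretches of the foregut tube. SOX2 is the transcription factor known for the stomach side of that border, PDX1 for pancreas and duodenum, and CDX2 for intestine. The mature gastric lining holds surface mucous cells, which secrete gastrokines and TFF1, mucous neck cells with TFF2, chief cells with pepsinogens, and parietal cells, whose proton pump consists of the ATP4A and ATP4B subunits. Most of these secreted products are known to appear later in gestation than the stage sampled here. The comparison of double with single heterozygotes asks which genes respond when both progenitor factors are reduced together, and for the stomach genes it shows whether gastric transcripts differ in such pancreatic epithelium.

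Cldn18 and Atp4a were the members in which all 3 double-heterozygote arrays lay above all 3 Sox9-heterozygote arrays, so their promoters are shown. Each window holds the 250 bases before and the 50 bases after an annotated start, from RefSeq on GRCm38.p6, and the arrays measure the transcripts, not these sequences. Cldn18 has 2 annotated starts, and the gene is known for separate lung and stomach first exons. Which transcript its probe reads was not determined. Capitals mark matches to a GATA motif, which is the letters GATA with an adenine or thymine before them and an adenine or guanine after them, searched on both strands. GATA4 and GATA6 act in foregut epithelium, and the motif was chosen with the Gata4 values known.
Cldn18, start 1, chr9:99717218-99717517, minus strand: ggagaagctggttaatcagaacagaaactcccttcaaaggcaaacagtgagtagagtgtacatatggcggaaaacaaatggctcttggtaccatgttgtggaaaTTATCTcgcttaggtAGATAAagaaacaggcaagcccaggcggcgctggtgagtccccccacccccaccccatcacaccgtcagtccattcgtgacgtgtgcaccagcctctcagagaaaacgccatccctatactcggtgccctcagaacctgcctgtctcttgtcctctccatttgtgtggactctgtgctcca
Cldn18, start 2, chr9:99710014-99710313, minus strand: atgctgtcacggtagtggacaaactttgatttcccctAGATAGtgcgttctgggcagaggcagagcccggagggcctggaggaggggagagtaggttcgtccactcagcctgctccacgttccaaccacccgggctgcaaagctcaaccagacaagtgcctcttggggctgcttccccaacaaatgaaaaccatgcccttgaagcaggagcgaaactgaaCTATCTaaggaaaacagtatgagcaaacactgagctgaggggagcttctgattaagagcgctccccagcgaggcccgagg
Atp4a, chr7:30711959-30712258, plus strand: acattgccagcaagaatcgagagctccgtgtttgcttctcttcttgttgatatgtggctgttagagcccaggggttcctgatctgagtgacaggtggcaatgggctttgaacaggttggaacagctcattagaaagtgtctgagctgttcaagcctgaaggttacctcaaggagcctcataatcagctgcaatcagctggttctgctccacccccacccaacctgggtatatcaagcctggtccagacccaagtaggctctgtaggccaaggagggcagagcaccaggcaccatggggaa
Both Cldn18 windows held 2 matches, at 146 and 131 bases before start 1 and at 213 and 30 bases before start 2. The Atp4a window held no match. Of 6 windows found for 5 of the measured members, 3 held at least 1 match, against 29.8% of 32851 promoter windows of the same length. A match describes the letters only.

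Signals of the stomach genes were low. Over all 9 arrays the 6 members other than Atp4a lay between 70 and 205 units of normalized intensity. As a guide to the signal of transcripts that pancreatic tissue is not known to make, 409 olfactory receptor probes had a median of 88.6 units and a 95th percentile of 175 units, a level that 64.6% of all probes exceeded. Of the 7 members, only Atp4a had a mean above that percentile. Probes differ in brightness for the same amount of transcript, so this places a signal near or above the array's floor and does not rank genes by abundance. The labelled tissue was clear in the same arrays: the acinar and tip gene Cpa1 measured at least 74082 units, Ptf1a 1555 units and Pdx1 1080 units on every array.

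**Figure D1:**
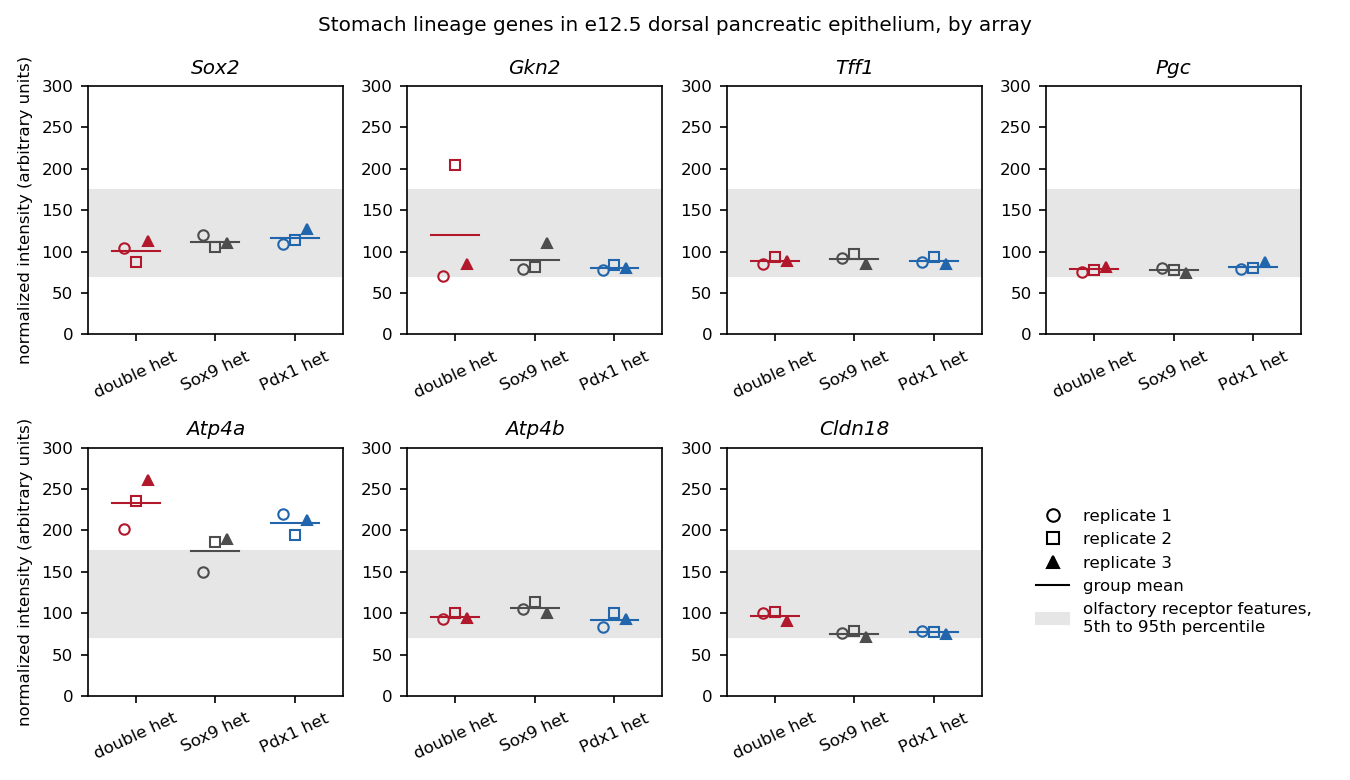
Normalized intensity (vertical axis, arbitrary linear units) of the 7 measured stomach lineage genes on each array, with double heterozygotes at the left, Sox9 heterozygotes in the middle and Pdx1 heterozygotes at the right of each panel. Symbols are arrays, lines are group means of 3 arrays and the grey band spans the 5th to 95th percentile of 409 olfactory receptor probes. Atp4a lies mostly above the band, Cldn18 is higher on the 3 double-heterozygote arrays, and 1 double-heterozygote array carries the high Gkn2 value of 205 units.

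None of the 7 measured members passed an adjusted p of 0.05 in any of the 3 comparisons (limma over all 18541 genes, Benjamini-Hochberg adjustment). Over all genes this fit called 0.307% between double and Sox9 heterozygotes, 0.108% between double and Pdx1 heterozygotes and 0.232% between Sox9 and Pdx1 heterozygotes. At an unadjusted limma p under 0.05 the members numbered 2, 1 and 1 in these comparisons, against 27.4%, 16.1% and 6.29% of all genes. The FDR in the authors' deposited table is far less strict: it lay under 0.05 for 23.1% of genes against the Sox9 heterozygotes and 17.3% against the Pdx1 heterozygotes, and for 2 and 1 of the members, all of them higher in double heterozygotes. How that FDR was computed is not known here. Over all genes it passed 12% higher and 11.1% lower against Sox9 heterozygotes, and 8.31% higher and 8.94% lower against Pdx1 heterozygotes. The deposited log2 ratios equal the differences of group means computed here from the arrays.

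Sox2, the stomach-side transcription factor gene, was not higher in the double heterozygotes. Its intensity was 104, 87 and 113 units in double heterozygotes, against 120, 106 and 110 units in Sox9 heterozygotes and 109, 114 and 127 units in Pdx1 heterozygotes. The lowest value of the 9 was a double-heterozygote array, and the groups overlapped. The log2 difference was -0.15 against Sox9 heterozygotes (95% interval -0.39 to 0.09, limma adjusted p = 0.366) and -0.21 against Pdx1 heterozygotes (-0.45 to 0.03, limma adjusted p = 0.36). Between Sox9 and Pdx1 heterozygotes it was -0.06 (-0.30 to 0.19, limma adjusted p = 0.915). The upper ends for double over Sox9 and over Pdx1 heterozygotes, 0.09 and 0.03, bound the difference in measured intensity. At a signal within the olfactory receptor range they do not bound a rise of the Sox2 transcript. The group means ran in the order double heterozygotes 101 ± 13.2, Sox9 heterozygotes 112 ± 7.21 and Pdx1 heterozygotes 117 ± 9.29 units (SD, n = 3 each), and neighbours in that order did not differ beyond their spread.

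Across the 9 arrays the 3 probes whose log2 values followed Sox2 most closely were Myt1, a zinc finger transcription factor gene of neural and endocrine cells, at a Pearson correlation of 0.949, Spata13 at 0.932 and B230317G11Rik at 0.925. These are the top 3 of all probes over 9 arrays of shared genotype groups, given as a description. Among the members themselves, Sox2 correlated negatively with Gkn2 (-0.743) and with Cldn18 (-0.702) over the same arrays, at signals close to the floor.

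Cldn18, which encodes a tight junction protein of stomach and lung epithelium, was the member whose groups separated in both comparisons of the double heterozygotes, at a signal on the array's floor. Its mean of 83 units lay below the olfactory receptor median of 88.6 units, and 31.5% of those probes were dimmer. It measured 100, 101 and 90 units in double heterozygotes, against 76, 78 and 71 units in Sox9 heterozygotes and 79, 77 and 75 units in Pdx1 heterozygotes. Every double-heterozygote array lay above every single-heterozygote array, an order that 7.03% of all genes share, while 18.6% of genes were so separated from Sox9 heterozygotes and 11.6% from Pdx1 heterozygotes. The log2 difference was 0.37 over Sox9 heterozygotes (95% interval 0.20 to 0.54, limma adjusted p = 0.0857, unadjusted p = 0.000661). Over Pdx1 heterozygotes it was 0.33 (0.16 to 0.50, limma adjusted p = 0.136, unadjusted p = 0.00141). The authors' deposited table gives these 2 ratios FDR values of 0.00328 and 0.004. Both differences missed the limma threshold and stayed positive when any 1 array was left out, between 0.33 and 0.42 against Sox9 heterozygotes and between 0.30 and 0.38 against Pdx1 heterozygotes. The 2 comparisons share the double-heterozygote arrays, so they do not support each other. Sox9 and Pdx1 heterozygotes differed by -0.04 (-0.21 to 0.13).

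Atp4a and Atp4b encode the catalytic and the accessory subunit of the gastric proton pump, which parietal cells use together, and their signals did not move in parallel. Atp4a measured 202, 235 and 261 units in double heterozygotes, against 150, 186 and 190 units in Sox9 heterozygotes and 220, 194 and 213 units in Pdx1 heterozygotes. The double-heterozygote arrays lay above the Sox9-heterozygote arrays, as 18.6% of all genes did, and overlapped the Pdx1-heterozygote arrays. Atp4a was 1.33-fold the Sox9-heterozygote level (log2 difference 0.41, 0.14 to 0.68, limma adjusted p = 0.112, FDR 0.0014 in the authors' deposited table). Against Pdx1 heterozygotes the log2 difference was 0.15 (-0.12 to 0.42, limma adjusted p = 0.521). The Sox9 heterozygotes lay below the Pdx1 heterozygotes on every array, an order in that direction that 6.04% of genes share, with a difference of -0.26 (-0.53 to 0.01, limma adjusted p = 0.822).

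Atp4b measured 93, 100 and 94 units in double heterozygotes, against 105, 113 and 100 units in Sox9 heterozygotes and 83, 100 and 93 units in Pdx1 heterozygotes. Its signal stayed within the olfactory receptor range in all groups, and it was highest where Atp4a was lowest, in Sox9 heterozygotes. The log2 difference was -0.15 against Sox9 heterozygotes (-0.34 to 0.05, limma adjusted p = 0.283) and 0.06 against Pdx1 heterozygotes (-0.14 to 0.26, limma adjusted p = 0.727). Sox9 over Pdx1 heterozygotes gave 0.21 (0.01 to 0.40, limma adjusted p = 0.751). Over the 9 arrays the log2 values of Atp4a and Atp4b had a Pearson correlation of -0.533.

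Gkn2, a gastrokine gene of surface mucous cells, rested on a single array. It measured 70, 205 and 85 units in double heterozygotes, against 79, 81 and 111 units in Sox9 heterozygotes and 78, 84 and 80 units in Pdx1 heterozygotes. Replicate 2 of the double heterozygotes alone exceeded the 95th percentile of the olfactory receptor probes, while replicate 1 held the lowest value of all 9. The log2 difference was 0.26 against Sox9 heterozygotes (-0.49 to 1.01, limma adjusted p = 0.618) and 0.41 against Pdx1 heterozygotes (-0.34 to 1.16, limma adjusted p = 0.525). Without that array the differences were -0.21 and -0.06. Its neighbour on chromosome 6, Gkn3, a further gastrokine gene, measured 134, 155 and 150 units in double heterozygotes, against 197, 148 and 129 units in Sox9 heterozygotes and 134, 161 and 149 units in Pdx1 heterozygotes, so the high Gkn2 array was not high for Gkn3.

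Tff1, the trefoil peptide gene of surface mucous cells, and Pgc, the gene of pepsinogen C in chief cells, stayed flat at the floor. Tff1 measured 85, 93 and 89 units in double heterozygotes, against 92, 97 and 85 units in Sox9 heterozygotes and 87, 94 and 85 units in Pdx1 heterozygotes. Pgc measured 76, 78 and 82 units in double heterozygotes, against 80, 78 and 74 units in Sox9 heterozygotes and 79, 80 and 87 units in Pdx1 heterozygotes. For both genes all groups overlapped. The log2 differences of Tff1 were -0.04 (-0.21 to 0.14) against Sox9 heterozygotes and 0.01 (-0.17 to 0.18) against Pdx1 heterozygotes, and those of Pgc were 0.02 (-0.14 to 0.19) and -0.06 (-0.22 to 0.10). The intervals of these 4 differences run from -0.22 to 0.19 at their outermost, at a signal near the floor.

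**Figure D2:**
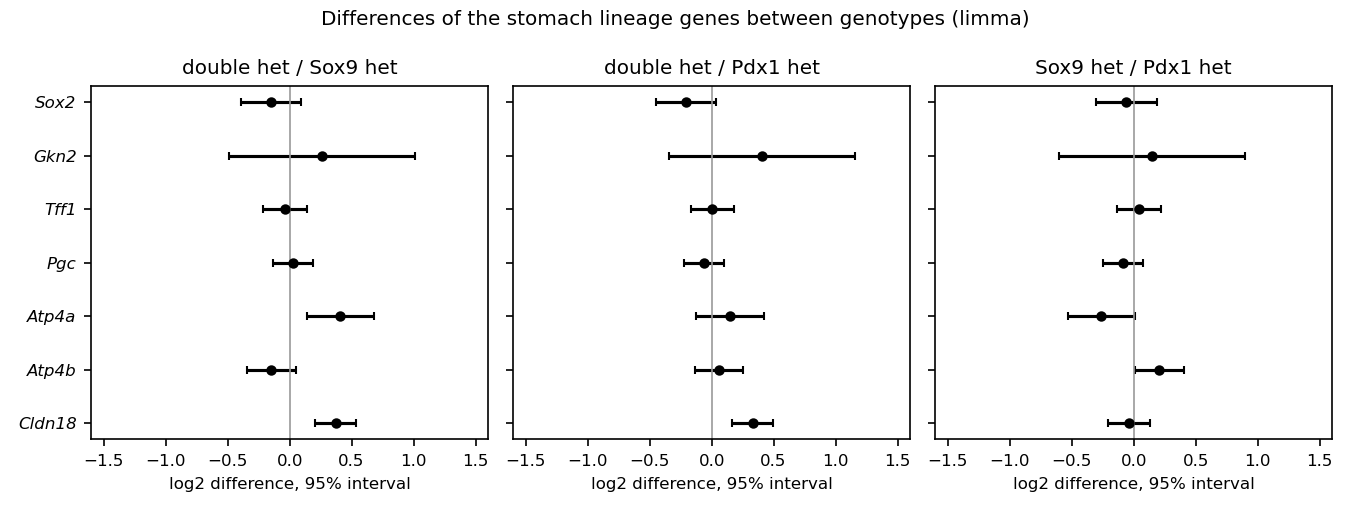
Log2 differences (horizontal axis) of the 7 measured stomach lineage genes in the 3 comparisons, with 95% intervals from limma over 9 arrays. Cldn18 stands at 0.37 and 0.33 in double over single heterozygotes and Atp4a at 0.41 over Sox9 heterozygotes, Gkn2 has the widest intervals, and no member passed after adjustment over all genes.

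A wider set of stomach genes, 81 genes in 6 lists without the members above, was set beside them. Its median log2 difference was 0.02 against Sox9 heterozygotes, where the median of all genes was -0.0009, and 0.04 against Pdx1 heterozygotes, where the median of all genes was 0.01. The medians of the 7 members were 0.02 and 0.06. By limma's adjusted p, 1 of the 81 was higher and 0 lower in double than in Sox9 heterozygotes, 0 passed against Pdx1 heterozygotes, and 1 was lower in Sox9 than in Pdx1 heterozygotes. By the FDR in the authors' deposited table, 10 were higher and 5 lower against Sox9 heterozygotes, where that FDR passed 23.1% of all genes, and 9 higher and 5 lower against Pdx1 heterozygotes, where it passed 17.3%. At an unadjusted limma p under 0.05, 10 were higher and 4 lower against Sox9 heterozygotes, and 10 higher and 6 lower against Pdx1 heterozygotes, beside 27.4% and 16.1% of all genes.

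Spdef, an ETS family transcription factor gene of mucous and goblet cells, was the gene that limma called in double over Sox9 heterozygotes. It measured 342, 324 and 388 units in double heterozygotes, against 219, 238 and 238 units in Sox9 heterozygotes and 324, 299 and 289 units in Pdx1 heterozygotes. It rose by 0.60 on the log2 scale over Sox9 heterozygotes (0.40 to 0.79, limma adjusted p = 0.0336), and its difference from Pdx1 heterozygotes was 0.21 (limma adjusted p = 0.297). This call was kept without replicate 2 of the double heterozygotes (limma adjusted p = 0.0395) and lost without any other of the 9 arrays, with adjusted p between 0.055 and 0.145, while the difference stayed between 0.52 and 0.65. It was also lost with the replicate number as a block (limma adjusted p = 0.0623).

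Slc26a9, an anion transporter gene of gastric surface and parietal cells, was the gene that limma called between Sox9 and Pdx1 heterozygotes. It measured 92, 99 and 98 units in Sox9 heterozygotes, against 138, 141 and 150 units in Pdx1 heterozygotes, and the double heterozygotes lay between them at 114, 117 and 119 units. It fell by 0.57 on the log2 scale in Sox9 against Pdx1 heterozygotes (-0.72 to -0.42, limma adjusted p = 0.0152). The 3 genotypes did not overlap. Of all genes, 18.6% lay higher in double than in Sox9 heterozygotes on every array, and 6.04% lower in Sox9 than in Pdx1 heterozygotes. The share of genes with all 3 groups apart was not counted. The differences of the double heterozygotes were 0.28 over Sox9 heterozygotes (limma adjusted p = 0.0999) and -0.29 over Pdx1 heterozygotes (limma adjusted p = 0.139). For these the authors' deposited table gives FDR values of 0.016 and 0.00809. The call was lost without any 1 of the 6 Sox9- or Pdx1-heterozygote arrays, with limma adjusted p between 0.0535 and 0.0886, and kept without any of the double-heterozygote arrays. All 9 values lie within the olfactory receptor range.

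Among 23 foregut and stomach transcription factor genes, which include Sox2, the FDR in the authors' deposited table passed for 4 higher and 2 lower against Sox9 heterozygotes (23.1% of all genes) and for 5 higher and 1 lower against Pdx1 heterozygotes (17.3% of all genes). Gata4, a zinc finger factor of foregut endoderm, measured 190, 207 and 293 units in double heterozygotes, against 110, 150 and 156 units in Sox9 heterozygotes and 135, 133 and 118 units in Pdx1 heterozygotes. Its log2 differences were 0.72 and 0.81 (limma adjusted p = 0.1 and 0.133). The double-heterozygote arrays lay above all others, an order that 7.03% of all genes share. Nkx6-3, a homeobox gene of the distal stomach and duodenum, measured 154, 142 and 400 units in double heterozygotes, against 108, 91 and 94 units in Sox9 heterozygotes and 130, 133 and 119 units in Pdx1 heterozygotes. Replicate 3 was far above the rest, and the differences were 1.08 and 0.70 (limma adjusted p = 0.112 and 0.326). Without that array they were 0.60 and 0.22. Pitx1, a homeobox gene best known from hindlimb and pituitary, stood at 0.72 over Pdx1 heterozygotes (limma adjusted p = 0.189), for which the authors' deposited table gives an FDR of 3.57e-05. Over Sox9 heterozygotes Pitx1 stood at 0.11, and Sox9 over Pdx1 heterozygotes gave 0.61. The lower genes in the authors' deposited table were Klf4, a factor of differentiating epithelium, at -0.53 (FDR 0.00218) and the homeobox gene Meis1 at -0.37 (FDR 0.00666) against Sox9 heterozygotes, and Meis1 at -0.48 (FDR 4.85e-04) against Pdx1 heterozygotes. Limma called none of these differences, with adjusted p of 0.105 for Klf4 and of 0.0954 and 0.0916 for Meis1.

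Genes of the differentiated gastric cell types follow by cell type. Of 20 genes of surface and neck mucous cells, the FDR in the authors' deposited table passed for Cldn18 in both comparisons and for the galectin gene Lgals4 over Sox9 heterozygotes (log2 difference 0.38, FDR 0.0328, limma adjusted p = 0.21). Lgals4 measured 116, 122 and 201 units in double heterozygotes, against 108, 105 and 115 units in Sox9 heterozygotes, with replicate 3 far above the rest. The mucin gene Muc6 measured 110, 113 and 109 units in double heterozygotes, against 122, 112 and 111 units in Sox9 heterozygotes and 109, 121 and 103 units in Pdx1 heterozygotes. Of 15 parietal cell genes, 4 were higher over Sox9 heterozygotes in the authors' deposited table, led by Atp4a and by the chloride channel family gene Clic6 at 0.39 (FDR 0.00996), and 0 were higher over Pdx1 heterozygotes, where 12% and 8.31% of all genes were higher. Of 11 chief cell genes, the prochymosin gene Cym, listed as Gm131, stood at 0.48 and 0.39 (FDR 0.00355 and 0.00658) over Sox9 and Pdx1 heterozygotes in the authors' deposited table. The same list held Lgr5, a WNT pathway receptor gene of stem cells, at 0.63 (FDR 3.48e-05), and the secreted factor gene Mia at -0.66 (FDR 7.85e-05) over Pdx1 heterozygotes in the authors' deposited table. Over Sox9 heterozygotes Lgr5 and Mia stood at 0.13 and -0.03, and Sox9 over Pdx1 heterozygotes gave 0.50 and -0.63. None of these mucous, parietal and chief cell differences of the double heterozygotes passed limma's adjusted p, and at an unadjusted p under 0.05 limma counted 2 mucous, 5 parietal and 1 chief cell gene over Sox9 heterozygotes, all higher, beside 27.4% of all genes in either direction. Over Pdx1 heterozygotes it counted 1 mucous gene higher, 0 parietal genes higher and 2 lower, and 3 chief cell genes higher and 2 lower, beside 16.1% of all genes. Whether the comparisons differ was not tested.

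Endocrine and squamous genes of the stomach passed in either direction, 2 of 10 and 2 of 12 against Sox9 heterozygotes and 1 of 10 and 2 of 12 against Pdx1 heterozygotes by the FDR in the authors' deposited table, which passed 23.1% and 17.3% of all genes. Of 10 stomach endocrine genes, the authors' deposited table passed the gastrin and cholecystokinin receptor gene Cckbr, higher by 0.25 and 0.36 (FDR 0.0448 and 0.00211), and the histamine enzyme gene Hdc at -0.30 against Sox9 heterozygotes (FDR 0.0144). Of 12 genes of forestomach and squamous epithelium, it passed Lor at -0.61 (FDR 2.46e-04) and Perp at -0.30 (FDR 0.0215) against Sox9 heterozygotes, and the keratin gene Krt13 at 0.23 (FDR 0.0328) and the desmosomal cadherin gene Dsg3 at -0.31 (FDR 0.0274) against Pdx1 heterozygotes, in the authors' deposited table. Lor measured 452, 266 and 207 units in double heterozygotes, against 633, 354 and 392 units in Sox9 heterozygotes, and these groups overlapped. Limma called 0 genes of either list, and at an unadjusted p under 0.05 it counted 1 endocrine and 1 squamous gene against Sox9 heterozygotes, both lower, beside 27.4% of all genes. Against Pdx1 heterozygotes it counted 1 endocrine gene higher, and 2 squamous genes higher and 1 lower, beside 16.1% of all genes.

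**Figure D3:**
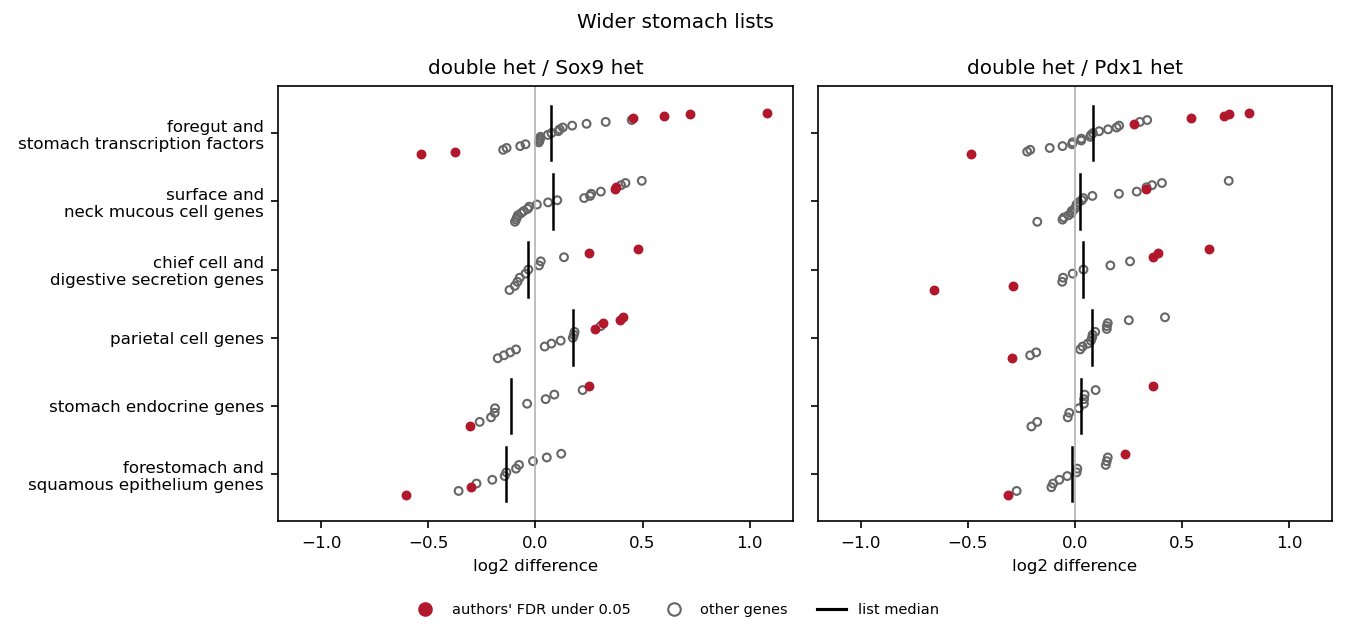
Log2 differences (horizontal axis) of double over Sox9 heterozygotes (left) and over Pdx1 heterozygotes (right) for 6 lists of stomach genes, members included, with filled points where the FDR in the authors' deposited table lies under 0.05 and a bar at each list's median. Genes are ordered by their difference within a list, and the transcription factor list reaches furthest to the right, at 1.08 for Nkx6-3.

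Markers of neighbouring tissues were read on the same arrays. Of 14 intestine markers, 4 were higher in each comparison in the authors' deposited table, as were 12% and 8.31% of all genes. Limma called 0 of them. At an unadjusted limma p under 0.05, 2 and 3 were higher, beside 27.4% and 16.1% of all genes in either direction. Their summed intensity was 3348 to 5211 units in double heterozygotes, against 2725 to 3098 units in Sox9 heterozygotes and 2825 to 2963 units in Pdx1 heterozygotes. The highest sum, on replicate 1, held 2218 units of Guca2b, the uroguanylin precursor gene. Cdx2 measured 85, 216 and 465 units in double heterozygotes, against 72, 77 and 67 units in Sox9 heterozygotes and 75, 76 and 94 units in Pdx1 heterozygotes, with replicates 2 and 3 high. Its differences were 1.51 and 1.33 (limma adjusted p = 0.115 and 0.245), and without replicate 3 they were 0.91 and 0.74. Cldn18 did not follow that order, with its lowest double-heterozygote value in replicate 3. Of 13 stomach mesenchyme markers limma called 0 in either comparison. At an unadjusted limma p under 0.05, 1 and 4 passed, beside 27.4% and 16.1% of all genes. Barx1, the mesenchymal homeobox gene of the stomach, measured 2678, 2478 and 3073 units in double heterozygotes, against 2002, 2457 and 2540 units in Sox9 heterozygotes and 2658, 2560 and 2673 units in Pdx1 heterozygotes. Its signal was far above the olfactory receptor range on every array, so RNA of this mesenchymal gene was present in the dissected epithelium.

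**Figure D4:**
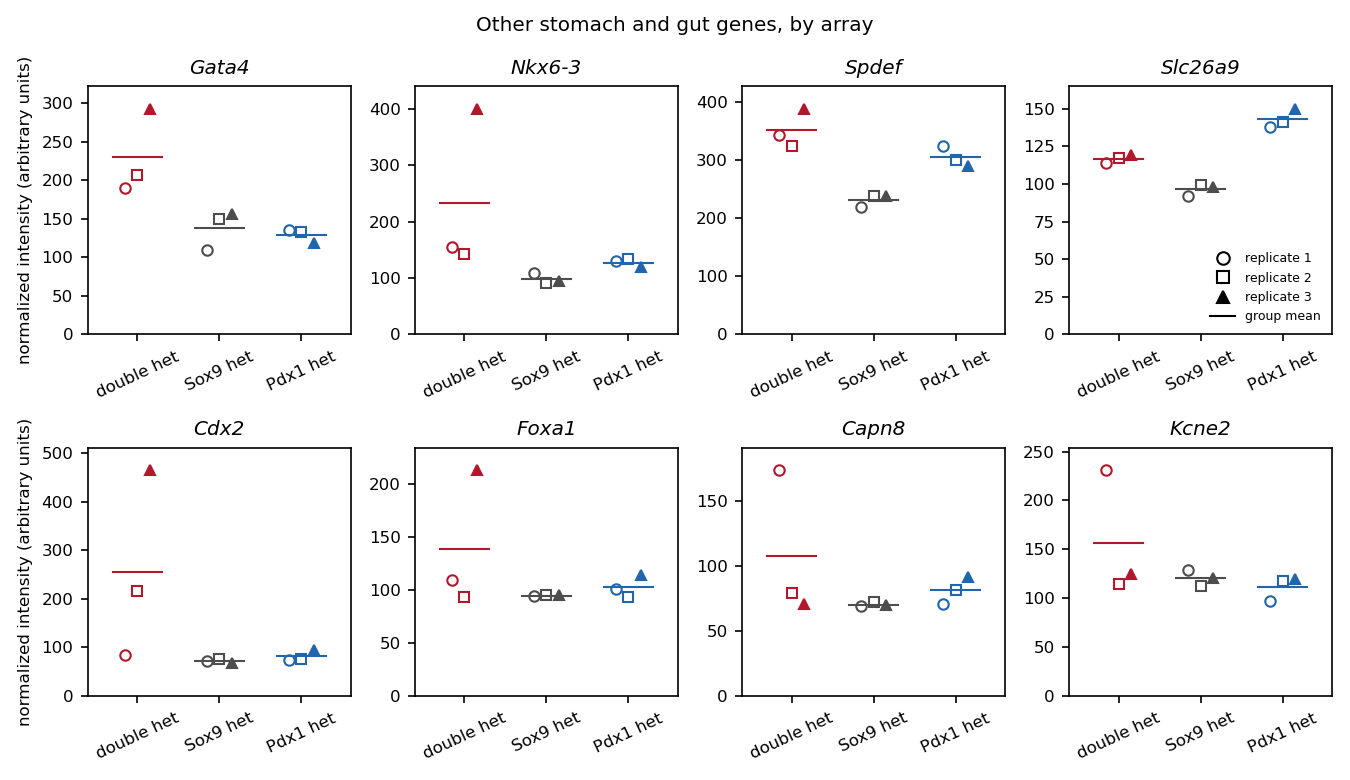
Normalized intensity (vertical axes, arbitrary linear units, each from 0) of 8 other stomach and gut genes on each array, with double heterozygotes at the left, Sox9 heterozygotes in the middle and Pdx1 heterozygotes at the right. Gata4 is higher on all double-heterozygote arrays, Spdef is lower on all Sox9-heterozygote arrays, and Slc26a9 separates the 3 groups. Nkx6-3, Cdx2 and Foxa1 reach 400, 465 and 213 units on replicate 3 of the double heterozygotes, and Capn8 and Kcne2 reach 174 and 231 units on replicate 1.

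Markers of further cell types were read in the same way. Of 11 neural and neural crest markers, 8 and 6 were lower against Sox9 and Pdx1 heterozygotes in the authors' deposited table, as were 11.1% and 8.94% of all genes. Limma called 0 of them. At an unadjusted limma p under 0.05, 8 and 6 were lower, beside 27.4% and 16.1% of all genes in either direction. Their summed intensity was 2898 to 3105 units in double heterozygotes, against 3895 to 4197 units in Sox9 heterozygotes and 3397 to 4160 units in Pdx1 heterozygotes. Sums of 12 mesenchyme markers overlapped, at 99259 to 102940 units in double heterozygotes, 94452 to 109158 units in Sox9 heterozygotes and 98343 to 106980 units in Pdx1 heterozygotes, and Vim alone gave 63349 to 75025 units of it over the 9 arrays. Beneath that sum, 3 markers were higher and 1 lower against Sox9 heterozygotes in the authors' deposited table, beside 12% and 11.1% of all genes. Against Pdx1 heterozygotes 0 passed, beside 17.3% of all genes. Among those that passed were Fn1 at 0.86 (FDR 5.21e-06), Col1a1 at 0.72 (FDR 0.00042) and Lum at -0.90 (FDR 0.000293). Limma called 0 of the 12, with adjusted p of 0.0851, 0.148 and 0.146 for Fn1, Col1a1 and Lum. Lum overlapped between these groups, with 1714 units on replicate 1 of the Sox9 heterozygotes. Summed intensities of 8 endothelium markers overlapped as well, at 9184 to 10037, 9367 to 11891 and 8980 to 9966 units in the same order of groups. Sums of 9 erythroid markers reached 287887 units on replicate 3 of the double heterozygotes and 247688 units on replicate 3 of the Pdx1 heterozygotes, against at most 191491 units elsewhere. Sums of 9 white blood cell markers were 4675 to 6655 units in double heterozygotes, 6535 to 7429 units in Sox9 heterozygotes and 5223 to 5872 units in Pdx1 heterozygotes. Lung and thyroid markers, 5 genes, summed to 836 to 1257, 900 to 923 and 728 to 765 units. Limma called 0 of these 5. At an unadjusted limma p under 0.05, 1 and 3 passed, beside 27.4% and 16.1% of all genes. Among 14 pancreatic epithelium markers limma called the homeobox gene Mnx1, listed as Hlxb9, which measured 250, 336 and 362 units in double heterozygotes, against 607, 860 and 813 units in Sox9 heterozygotes and 238, 284 and 212 units in Pdx1 heterozygotes. It fell by 1.27 on the log2 scale against Sox9 heterozygotes (limma adjusted p = 0.0294). Limma also called Mnx1 in Sox9 over Pdx1 heterozygotes, at 1.63 (limma adjusted p = 0.0125). Double over Pdx1 heterozygotes gave 0.36 (limma adjusted p = 0.34), so the Sox9 heterozygotes were the group that stood apart. Replicate 3 of the double heterozygotes stood apart on the first principal component, which held 37.6% of the variance, and was the highest array for 25.8% of all genes and for 28.4% of the 81 stomach genes. Replicate 1 of the Sox9 heterozygotes lay at the opposite end of that component, at -25.4 against 36.9. It was the highest array for 21.4% of all genes and for 16% of the 81 stomach genes. The part of these differences in the Cldn18 and Atp4a values was not tested.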

How the data were processed

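RNA of 9 samples, 3 per genotype label, was labelled with Cy3, per the labels' protocols, and read on Agilent arrays with 1 colour. The authors deposited normalized intensity values per sample on a linear scale, 1 probe for each of 18541 genes. The array medians lie between 347 and 353 units, and how the authors corrected background, normalized and chose probes is not stated. The authors deposited log2 ratios and an FDR, read as an adjusted p-value (q-value), for 2 comparisons, per the file headers, and the submitters' processing notes name limma. Their log2 ratios equal the differences of group means of log2 intensity within 4.27e-08, which settles scale and direction. That ratio table also holds 9 columns named by array barcode, which were not assigned to samples and not used. Their names give 3 slides of 3 arrays. By their values they may be the arrays analysed here, with each replicate number on 1 slide, but no label ties a sample to a slide, so slide was not fitted under its own name. The fit with the replicate number as a block would take up such a slide effect.

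Log2 intensities were fitted with limma 3.58.1 in R 4.3.3, with 1 mean per genotype over all 9 arrays, no block and Benjamini-Hochberg adjustment over all genes. A gene was called at an adjusted p under 0.05, and intervals are 95% intervals of the moderated fit. The number of arrays limits the precision. In data simulated for double over Sox9 heterozygotes with 18541 genes, 90% of 200 genes changed by a log2 difference of 1 and 98% of those changed by 2 were called. The genes were drawn at random with independent normal noise. Both changes exceed the largest member difference over Sox9 heterozygotes, 0.41, so these shares do not give the power for the members. Each sample pooled 3 embryos, and the series describes 3 biological replicates per group. Alternatives were quantile normalization, median centring, leaving out dim probes, fits of 2 groups, a trended robust prior, array weights, the replicate number as a block, other thresholds, the authors' FDR and leaving out each array.

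The members and lists were chosen with earlier results of these data known. Named genes are all members, the 3 probes most like Sox2 and, from each list and comparison, up to 2 genes per direction with the largest difference among those called, applied to limma and to the authors' FDR. The authors' calls were added to that rule after limma's had been seen. Barx1, Gkn3, Muc6, Foxa1, Capn8, Kcne2 and the genes of the closing part beyond this rule were named after their values were seen. Current symbols came from RefSeq through Entrez numbers. Some genes that the rule selects in the marker lists of other tissues are not described.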

Additional observations from a re-analysis of the deposited data

How the results depend on the processing

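With limma 0 members passed in each comparison, and this count stayed between 0 and 0 when any 1 array was left out. Between double and Sox9 heterozygotes it became 1 at an adjusted p under 0.1 (Cldn18), 2 at an unadjusted p under 0.05 (Cldn18 and Atp4a, a threshold chosen after seeing the data), 2 with array weights (Cldn18, and Atp4b lower) and 2 with the authors' deposited FDR (Cldn18 and Atp4a). Between double and Pdx1 heterozygotes it became 1 at the unadjusted threshold and 1 with the authors' deposited FDR, Cldn18 in both cases, and between Sox9 and Pdx1 heterozygotes 1 at the unadjusted threshold, Atp4b. Of 332 values of the members under alternatives, 327 stayed on the same side of the threshold, 5 passed it, and 0 changed direction as a called value. Outside the array weights and the authors' FDR, the lowest adjusted p of a member was 0.0739, for Cldn18 with the replicate block.

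Counts over all genes moved far more. Between double and Sox9 heterozygotes, 57 genes became 5 at 0.01, 463 at 0.1, 5071 at an unadjusted p under 0.05, 3 with only the groups compared, 3516 with array weights and 4292 with the authors' FDR, and 4 to 68 without 1 array. Between double and Pdx1 heterozygotes, 20 became 2 at 0.01, 78 at 0.1, 2994 unadjusted, 58 without dim probes, where fewer genes are tested, 2 with only the groups compared and 3199 with the authors' FDR, and 1 to 9 without 1 array. Between Sox9 and Pdx1 heterozygotes, 43 became 5 at 0.01, 67 at 0.1, 1166 unadjusted, 227 with array weights and 18 with the replicate block, and 4 to 71 without 1 array. The cause was not tested. The estimation of array weights stopped before it converged and gave replicate 2 of the Sox9 heterozygotes a weight of 9.12 against 0.312 to 1.68 for the others. Deviations of same-numbered arrays correlated between -0.18 and 0.24, and 6 of 9 arrays correlated best with one of their own number, a hint from the data and not the design. Not every such correlation passed 0.1 and no label says what the number marks, so the fit without the block was kept. If each number was 1 slide, this block is the slide, and with it the Spdef call is lost, the Slc26a9 call is kept and no member passes. The low signal of most members, near the olfactory receptor probes, limits what a missing difference shows.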

Other observations

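Several gut and stomach genes were far higher on 1 double-heterozygote array than on the other two, and different genes on different arrays. They were picked after their values were seen, and how often other genes show 1 high array was not counted. Single heterozygotes had such arrays too. Among the mucous cell genes, Ctse measured 329 units on replicate 3 of the Pdx1 heterozygotes, against 124 and 168 units on the others. Psca measured 146 units on replicate 2 of that group, against 85 and 93 units. Prap1, a secreted protein gene of the gut lining, measured 10878, 869 and 457 units on replicates 1, 2 and 3 of the double heterozygotes, against 116 to 190 units in Sox9 heterozygotes and 196 to 301 units in Pdx1 heterozygotes. All 3 arrays were above the single heterozygotes, as for 7.03% of all genes, and replicate 1 was far above the rest. Guca2b, the uroguanylin precursor gene, measured 2218, 237 and 162 units in double heterozygotes, against at most 168 units in Sox9 heterozygotes and 174 units in Pdx1 heterozygotes. On the same replicate 1 the water channel gene Aqp5 stood at 438 units, against 130 and 63 units on the other double-heterozygote arrays, 100 to 144 units in Sox9 heterozygotes and 84 to 101 units in Pdx1 heterozygotes. Capn8, a calpain gene of gastric mucous cells, stood at 174 units there, against 69 to 72 units in Sox9 heterozygotes and 71 to 92 units in Pdx1 heterozygotes. Even that highest Capn8 value lies just under the 95th percentile of the olfactory receptor probes. Kcne2, a potassium channel subunit gene of parietal cells, stood at 231 units there, against 112 to 129 units in Sox9 heterozygotes and 97 to 120 units in Pdx1 heterozygotes.

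Replicate 3 of the double heterozygotes carried another set. The forkhead factor gene Foxa1 measured 213 units on it, against 109 and 93 units on the other double-heterozygote arrays, 94 to 95 units in Sox9 heterozygotes and 93 to 114 units in Pdx1 heterozygotes. Agr2, a gene of mucus-secreting cells, measured 145 units on it, against 80 and 88 units on the other double-heterozygote arrays, 75 to 77 units in Sox9 heterozygotes and 83 to 109 units in Pdx1 heterozygotes. These Agr2 values all lie within the olfactory receptor range. Nkx6-3 and Cdx2 were highest on the same array. Of the members, Gkn2 was high on replicate 2 alone, and Cldn18 was higher on all 3.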
